A study of Arabidopsis thaliana with 4 samples.

Results

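Plant defensins and thionins are small, secreted, cysteine-rich peptides held together by disulphide bridges. Many defensins restrain the growth of fungi, and thionins are toxic to the membranes of bacteria and fungi. In Arabidopsis, PDF1.2 is a widely used marker of defence driven jointly by jasmonate and ethylene, and salicylic acid opposes its induction. THI2.1 is a thionin induced by jasmonate and by fungal attack. The 4 genes followed here are PDF1.2 (AT5G44420), its close relative PDF1.2b (AT2G26020), THI2.1 (AT1G72260) and the thionin family gene AT2G15010. They were taken by name, with earlier results of these data known, and each is reported by 1 probe set, a group of short probes on the array. They are 4 of the 13286 genes that a probe set names alone and that match the RefSeq annotation.

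Transcripts were measured on Affymetrix ATH1 arrays in whole seedlings of Arabidopsis thaliana. One group was the rsa3-1 mutant on 120 mM NaCl for 24 h, and the other was wild type given the same salt treatment. Both were 6 days old, and both had the background Columbia gl1 with the RD29A::LUC transgene, a luciferase reporter under a stress-responsive promoter. Each genotype had 2 arrays, which the submitters call biological replicates, and the labels do not say whether they came from separate plates or sowings. No unsalted seedlings were analysed here, so the values show how the genotypes differ under salt and not how the genes respond to it. RSA3 encodes a xyloglucan galactosyltransferase of cell wall synthesis. Its transcript was not analysed here, so the genotype labels were not checked against it.

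Signals are log2 values. Array medians lay between 6.46 and 6.51, and the lowest signals between 2.57 and 2.61. Wild type replicate 1 was the brightest array for 44 of 45 bacterial and phage spike-in probe sets, by a median of 0.94. On probe sets that name 1 gene, the shoot genes RCA, PSAE-1, PSBW and HPR and the root gene PYK10 all had signals of 11.94 or higher on every array, so markers of shoot and root were both present. Across the 22746 probe sets tested, 1.13% were called different between the genotypes by limma at an adjusted p under 0.05, with 0.659% higher and 0.466% lower in rsa3-1. No overlap between the genotypes was seen in 38.6% of probe sets. An unadjusted p under 0.05 was reached by 9.68%.

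Of the 4 genes, AT2G15010 fell and was the only one called. The marker defensin PDF1.2, its relative PDF1.2b and the jasmonate-induced thionin THI2.1 did not pass the test. One lower call among 4 genes stands beside the background of 0.466%. AT2G15010 was included with its decrease already known, so this share says nothing about the genes as a group. The median difference of the 4 was -0.05, against -0.01 over all probe sets.

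PDF1.2 had signals of 5.13 and 5.22 in rsa3-1 seedlings, against 5.57 and 5.17 in wild type. Wild type replicate 1 stood above the other arrays, which lay close together, and the genotypes overlapped. The mean was 5.17 ± 0.07 in rsa3-1 and 5.37 ± 0.28 in wild type (SD, n = 2 each). The difference of -0.20 had a 95% confidence interval from -0.53 to 0.14, a ratio between 0.692 and 1.098, and did not pass (limma adjusted p = 0.74). Without wild type replicate 1 it was 8.28e-05, so the difference rested on that array. The probe set was brighter than 34.2% to 38.9% of those on each array. No detection calls were used, so it is not known whether a signal this dim lies above background.

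PDF1.2b encodes a defensin closely related to PDF1.2. It had signals of 4.95 and 4.78 in rsa3-1, against 4.40 and 4.69 in wild type. Both rsa3-1 values lay above both wild type values, but the nearest values of the genotypes were close. The difference was 0.32 with a standard error of 0.13 and an interval from 0.02 to 0.62. It had an unadjusted p of 0.041 in limma and an adjusted p of 0.48, and so was not called. PDF1.2b and PDF1.2 had differences of opposite sign, and the contrast between them was not tested.

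The probe set of PDF1.2b carries the suffix that Affymetrix gives to sets in which some probes also match other transcripts. Only 126 of the 22746 probe sets have it, whereas those of PDF1.2, THI2.1 and AT2G15010 have the plain suffix. The annotation lists PDF1.2b alone for it, and which other transcripts its probes match was not analysed here. No probe set was named for PDF1.2c, PDF1.3 or PDF1.5, and these 3 defensins were not analysed here. In the RefSeq gene order PDF1.2c lies next to PDF1.2 on chromosome 5, and PDF1.3 lies next to PDF1.2b on chromosome 2. The signal of PDF1.2b at 4.40 to 4.95, brighter than 26.1% to 31.9% of probe sets, therefore cannot be assigned to that gene alone.

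THI2.1 was the dimmest of the 4 probe sets relative to its array, brighter than 10.7% to 17.4% of all. It had signals of 3.88 and 3.50 in rsa3-1, against 3.59 and 3.61 in wild type. One rsa3-1 value lay above and the other below the wild type pair. The difference was 0.09, with an interval from -0.23 to 0.42 (limma adjusted p = 0.91). It was -0.10 without rsa3-1 replicate 1, so the sign depended on a single array. The interval covers ratios from 0.853 to 1.34, and RMA compresses differences between dim probe sets.

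AT2G15010 had signals of 6.64 and 6.73 in rsa3-1, against 8.46 and 8.64 in wild type. The genotypes were well apart, with replicates 0.09 apart in rsa3-1 and 0.18 apart in wild type. The mean was 6.68 ± 0.06 in rsa3-1 and 8.55 ± 0.13 in wild type (SD, n = 2 each). The difference was -1.87 with a standard error of 0.11, a signal 3.66-fold lower in the mutant (limma adjusted p = 4.9e-04). Its 95% interval ran from -2.12 to -1.62. The probe set was brighter than 52.3% and 53.5% of all on the rsa3-1 arrays, against 79.6% and 82.3% on the wild type arrays.

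Counted from the lowest, the difference of AT2G15010 had rank 9 among the 22746 probe sets tested. It kept its call whichever array was left out, with differences from -1.96 to -1.78 and adjusted p from 7.7e-04 to 0.0064. For a single gene, an exact permutation test of 2 arrays against 2 cannot go below p = 0.333, two-sided, so each call rests on limma's spread shared across probe sets. Whole seedlings were sampled, and fewer cells of a type cannot be told apart from less RNA per cell.

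**Figure D1:**
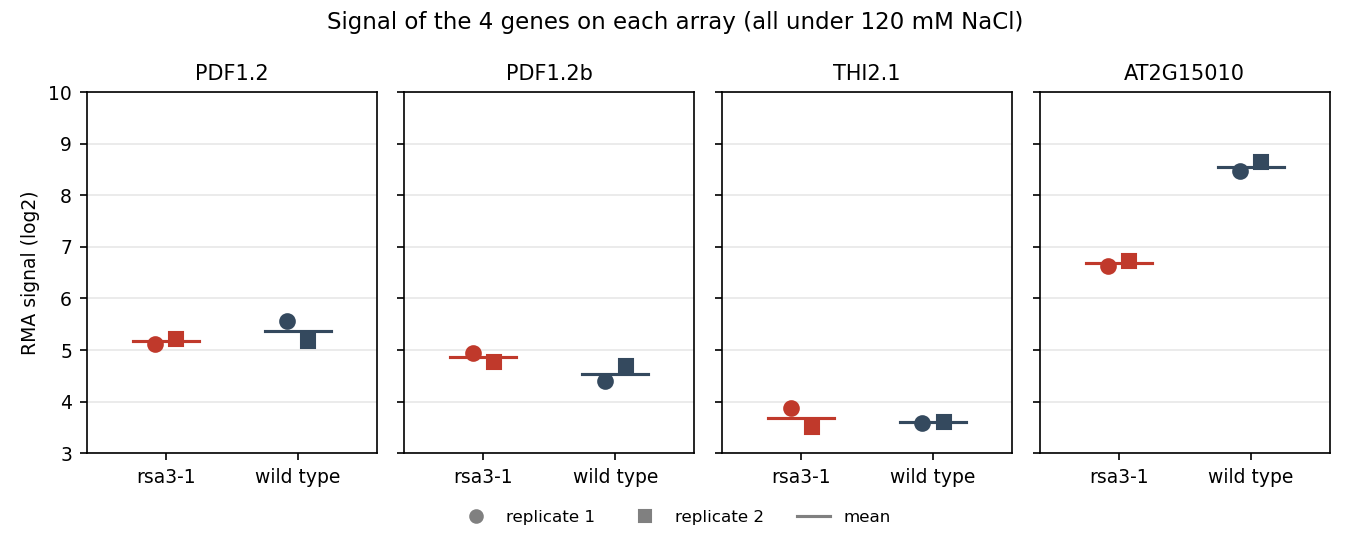
Signal (log2, vertical axis) of the probe sets of PDF1.2, PDF1.2b, THI2.1 and AT2G15010 in rsa3-1 and wild type seedlings, all on 120 mM NaCl; circles are replicate 1, squares replicate 2 and lines the means of 2 arrays. AT2G15010 averaged 6.68 in rsa3-1 and 8.55 in wild type, while the means of PDF1.2b, the next in size, differed by 0.32.

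The rest of both families was read from 2 lists, 15 plant defensins of the PDF classes and 6 thionins. Of these, 12 defensins and 4 thionins were named alone for a probe set in the annotation used here. Among the thionins, AT2G15010 and THI2.2 fell, 0 rose, and 2 did not pass. Among the defensins, PDF1.4 rose, 0 fell, and 11 did not pass. An unadjusted p under 0.05 in limma was reached by 2 thionins and 4 defensins, against 9.68% of all probe sets, and calls were made for 1.13% of all. The median difference was -0.74 over the 4 thionins and 0.14 over the 12 defensins, against -0.01 over all probe sets.

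THI2.2 encodes thionin 2.2, a relative of THI2.1. Its signals were 7.75 and 7.67 in rsa3-1, against 8.88 and 8.96 in wild type. Both replicate pairs were tight, and the genotypes lay well apart. The difference was -1.21 (standard error 0.10, limma adjusted p = 0.0022), a signal 2.32-fold lower, and it stayed between -1.25 and -1.17 with each array left out, always called. THI2.1 and THI2.2 thus had differences of 0.09 and -1.21, and THI2.1 was read from a much dimmer probe set.

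The thionin family gene AT1G66100 had signals of 5.35 and 5.11 in rsa3-1, against 5.39 and 5.59 in wild type. Its difference of -0.26 did not pass (limma adjusted p = 0.58), although the genotypes did not overlap. The list also holds AT1G12660 and AT1G12663, which share a probe set with a difference of 0.05 on signals of 3.70 to 3.78, and their transcripts cannot be told apart on it.

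PDF1.4 encodes a class 1 defensin, like PDF1.2. It had signals of 7.31 and 7.81 in rsa3-1, against 6.13 and 5.88 in wild type. The difference was 1.56 with a standard error of 0.17, a signal 2.94-fold higher (limma adjusted p = 0.0085). PDF1.4 no longer passed once wild type replicate 2 was left out (adjusted p = 0.063), at a difference of 1.43.

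PDF1.1 encodes a defensin known from Arabidopsis seeds. It had signals of 5.87 and 6.98 in rsa3-1, against 4.498 and 5.01 in wild type. The rsa3-1 replicates were 1.11 apart, the widest pair among the 16 genes, yet both lay above wild type. The difference of 1.68 (standard error 0.33) did not pass (limma adjusted p = 0.085). Without rsa3-1 replicate 1 it was 2.23 and passed (adjusted p = 0.0015), and without wild type replicate 1 it was 1.42 (adjusted p = 0.40). The difference was 1.12 without rsa3-1 replicate 2 and 1.93 without wild type replicate 2. PDF1.1 also passed with arrays at a common median (limma adjusted p = 0.045), with quantile normalization (0.049) and with trended and robust variance (0.026). PDF1.1 did not pass among probe sets with a mean of at least 5 (0.066) or among probe sets of 1 gene (0.091). Nor did it pass with array weights (0.094) or with a term for replicate number (0.093).

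**Figure D2:**
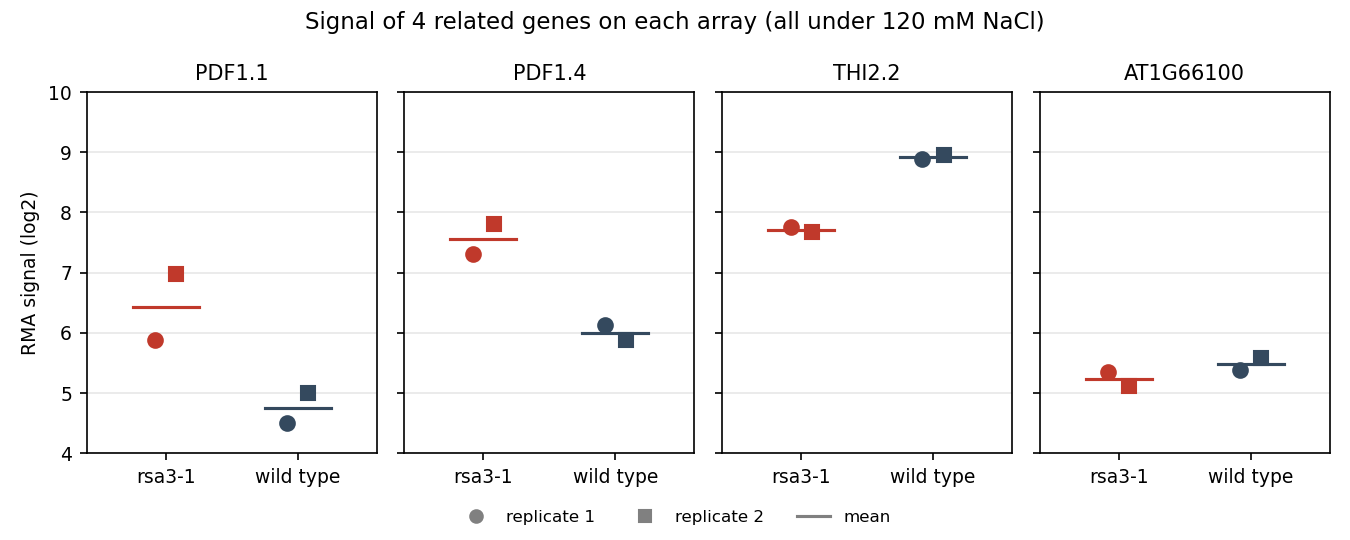
Signal (log2, vertical axis) of PDF1.1, PDF1.4, THI2.2 and AT1G66100 in rsa3-1 and wild type seedlings, all on 120 mM NaCl; circles are replicate 1, squares replicate 2 and lines the means of 2 arrays. THI2.2 was lower and PDF1.4 higher in rsa3-1, and the PDF1.1 values in rsa3-1 were 1.11 apart.

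The class 2 defensins gave smaller differences, and none was called. PDF2.2 and PDF2.3 were among the brightest probe sets on the arrays, with signals of 13.03 and 13.04 in rsa3-1 against 12.99 and 12.86 in wild type for PDF2.2. For PDF2.3 they were 11.83 and 11.78 in rsa3-1 against 11.86 and 11.68 in wild type. Their differences were 0.11 and 0.04, with intervals from -0.13 to 0.34 and from -0.21 to 0.29. PDF2.1 had the largest difference of this class, 0.42, with an unadjusted p of 0.020 and a limma adjusted p of 0.38. PDF2.5 was at 0.19, PDF2.4 at 0.17 and PDF2.6 at -0.14. The remaining class of the list, LCR80 and LCR59, had differences of 0.04 and -0.02 on signals of 3.31 to 3.63. PDF2.1 and PDF2.3 lie next to each other on chromosome 2, with PDF2.6 beside PDF2.3, and none of these neighbours was called.

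**Figure D3:**
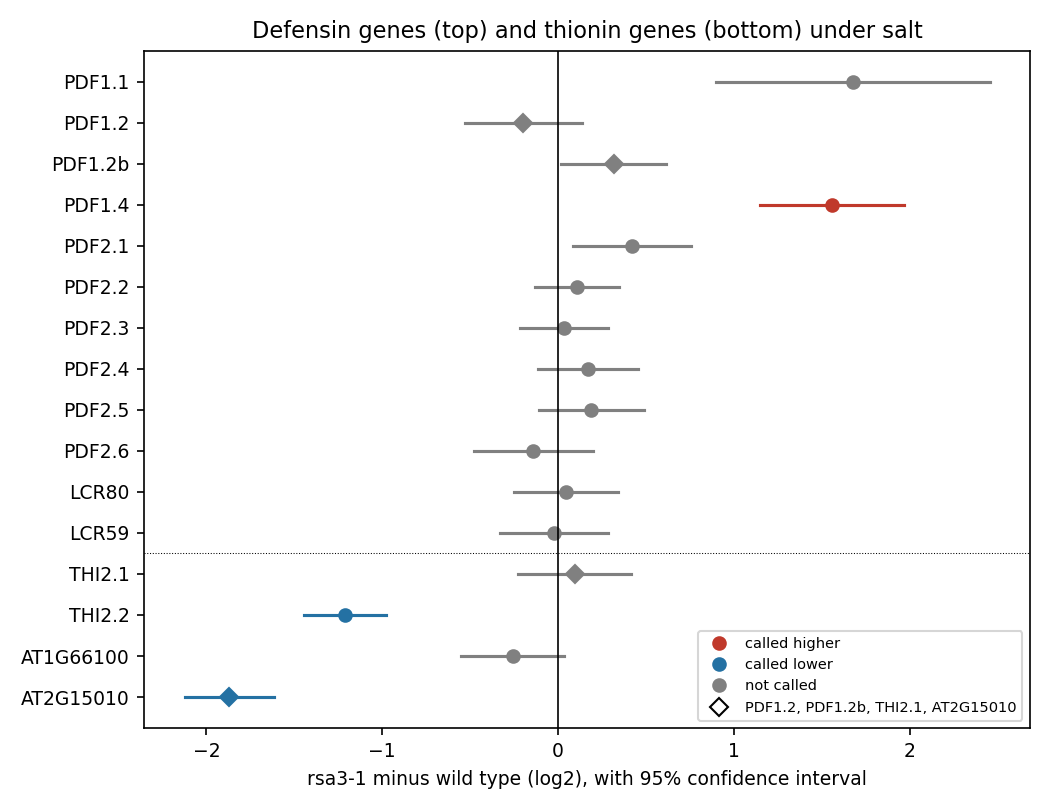
Difference between rsa3-1 and wild type (log2, horizontal axis) with its 95% confidence interval for 12 defensin genes (above the dotted line) and 4 thionin genes (below it), diamonds marking PDF1.2, PDF1.2b, THI2.1 and AT2G15010. Calls are at an adjusted p under 0.05: PDF1.4 was higher, and THI2.2 and AT2G15010 were lower.

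Across both lists 3 of 16 genes were called, 18.8%, against 1.13% of all probe sets. One of the 3, AT2G15010, was chosen with its value known. The lists were drawn up with earlier results of these data in view, so the share is a description. Of the 16 probe sets, 6 had a mean signal under 5, where background may make up much of the signal.

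The neighbours of AT2G15010 on chromosome 2 did not share its decrease to a similar size. AT2G15000 had a difference of -0.23 and AT2G15020 one of -0.12, and neither passed (limma adjusted p = 0.61 and 0.80). AT5G44410, on the other side of PDF1.2 from PDF1.2c, was at 0.01. THI2.1 on chromosome 1 was flanked by AT1G72250 at -0.10 and AT1G72270 at -0.19, neither called. Over both families, 1 of 14 measured flanking genes was called, against 1.13% of all probe sets. The called gene was AT1G66090, at 0.73 (limma adjusted p = 0.022), which is named here after its value was seen. It lies beside the thionin gene AT1G66100, which was at -0.26 and not called.

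Upstream of PDF1.2, few genes of the pathway could be read. The annotation leaves 8730 probe sets unnamed, so a gene counted here as not measured is one that it names for no probe set. Of 17 listed regulators of PDF1.2 only ROXY19, a glutaredoxin that represses PDF1.2 through TGA factors, was named for a probe set, and its difference was 0.27 (limma adjusted p = 0.64). ROXY19 had signals of 5.82 and 5.59 in rsa3-1, against 5.62 and 5.24 in wild type, so the genotypes overlapped. Of 17 jasmonate synthesis and turnover genes 2 were measured, and 0 passed. OPCL1, a ligase that activates jasmonate precursors, was at 0.34 with an unadjusted p of 0.010 (limma adjusted p = 0.29), and JMT, which methylates jasmonate, was at -0.18. Of 16 jasmonate signalling genes the transcription factors MYC3 and MYC4 were measured, at -0.12 and -0.03, and 0 passed (0 at an unadjusted p under 0.05). Over all probe sets 1.13% were called and 9.68% reached an unadjusted p under 0.05. With so few genes measured, 0 calls therefore say little about either jasmonate list. Of 16 ethylene genes EIN3, the transcription factor that activates ethylene responses, was measured at 0.02. None of the 6 other jasmonate and ethylene output genes listed was analysed here.

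Of 19 other antimicrobial peptide genes, 6 were measured, all of the snakin-like GASA family. AT2G14900 rose, with signals of 9.08 and 9.09 in rsa3-1 against 8.47 and 8.43 in wild type, a difference of 0.63 (limma adjusted p = 0.030). The other 5 did not pass, and their differences lay between -0.10 and 0.21, with AT5G59845 at 0.21, AT2G39540 at 0.12 and AT2G18420 at 0.08. Higher calls made up 0.659% of all probe sets. This list too was drawn up with earlier results of these data known, so the 1 call among 6 is a description.

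The genes whose values over the 4 arrays were most like those of AT2G15010 were picked by distance. Each gene's values were centred on their own mean, and the Euclidean distance between them was taken over 13509 probe sets that name 1 gene. The nearest was OCT1, an organic cation transporter, at a distance of 0.39, followed by AT2G47780 at 0.43 and OLEO3, an oleosin that coats oil bodies, at 0.47. Their differences were -1.61, -1.65 and -1.50, and all 3 were called. With 4 arrays, likeness largely means a decrease of similar size.

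OLEO3 also belongs to the list of seed reserve, oil body and late seed markers. Of 19 markers 3 were measured, all with lower values in rsa3-1, and 2 of the 3 were called lower. Lower calls made up 0.466% of all probe sets, and the list was drawn up with earlier results of these data known. OLEO3 and the oleosin family gene AT3G01570 fell, at -1.50 and -2.11, and M17, a late embryogenesis gene, did not pass at -0.70. The signals of the 3 summed on the linear scale to 287 and 248 in rsa3-1, against 893 and 719 in wild type, and the lowest single value was 4.93 for OLEO3 in rsa3-1. PDF1.1, the defensin known from seeds, is not on this list. Its difference was 1.68, higher in rsa3-1 and not called. The part of seed-type transcripts in the decrease of AT2G15010 was not tested. Of 13 photosynthetic shoot markers 4 were measured, with differences from 0.04 to 0.28. Of 7 root and root hair markers 3 were measured, EXPA18 at -0.37, EXPA7 at -0.28 and PYK10 at -0.11. None of either list was called, against 1.13% of all probe sets. An unadjusted p under 0.05 in limma was reached by HPR, higher at 0.28, and by EXPA18, which was lower, against 9.68% of all probe sets.

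**Figure D4:**
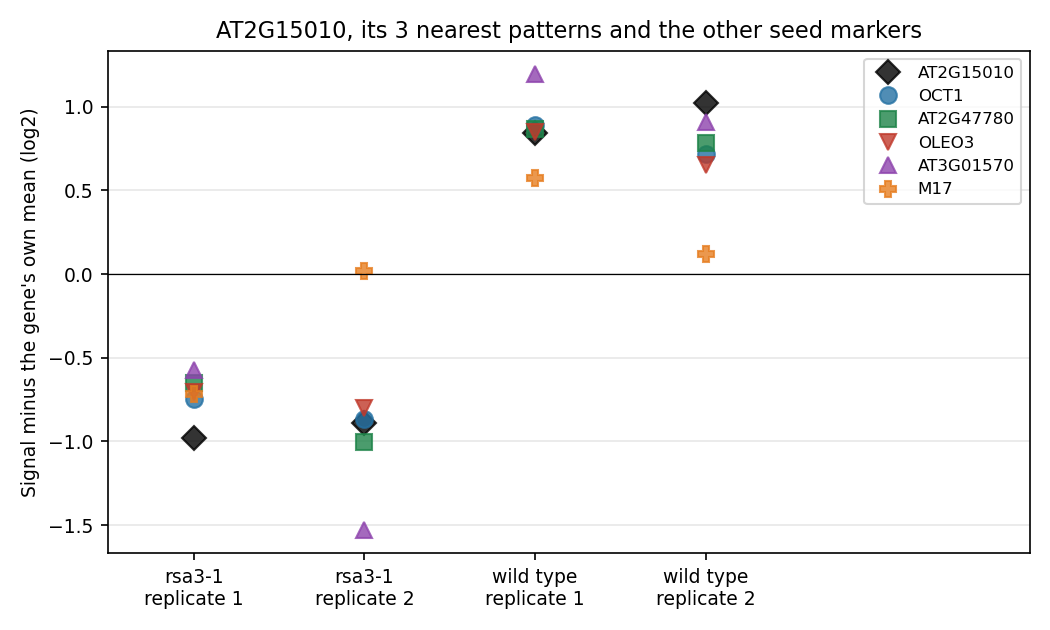
Signal on each array minus the gene's own mean over 4 arrays (log2, vertical axis) for AT2G15010, its 3 nearest genes by distance (OCT1, AT2G47780, OLEO3) and the other 2 measured seed markers (AT3G01570, M17). AT2G15010 and its nearest genes were low on both rsa3-1 arrays and high on both wild type arrays, while M17 on rsa3-1 replicate 2 lay near 0.

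The other 3 genes had no such marked pattern, and their nearest genes were ones with equally small differences. For PDF1.2 the nearest were AT1G49680, AT3G22980 and AT1G67240, at distances of 0.02 to 0.03, and the shared feature was a high value on wild type replicate 1. For PDF1.2b the nearest were CcdA, XTH20 and AT1G33030, at 0.04 to 0.05, with differences of 0.30, 0.28 and 0.34. For THI2.1 the nearest were AT1G08310, AT3G49480 and AT2G40430, all with a high value on rsa3-1 replicate 1. Of these 9 nearest genes, 0 were called in limma, against 1.13% of all probe sets. Only AT1G33030 had an unadjusted p under 0.05 in limma (0.038), which 9.68% of all probe sets reached. All 9 were picked for likeness to genes that were not called, so these counts follow from the choice.

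**Figure D5:**
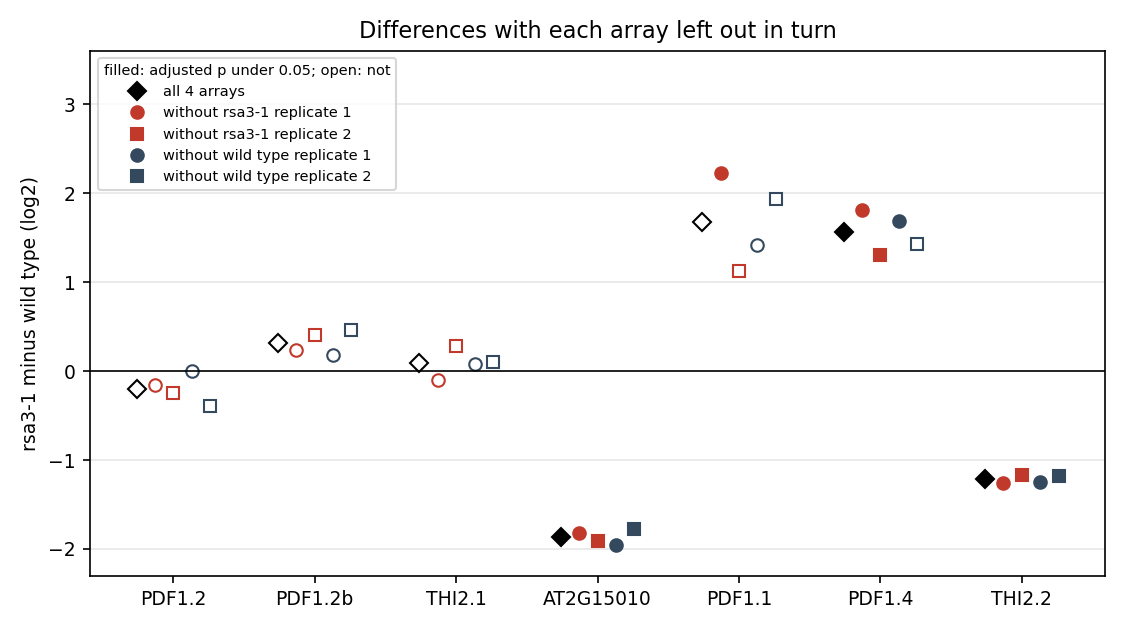
Difference between rsa3-1 and wild type (log2, vertical axis) for PDF1.2, PDF1.2b, THI2.1, AT2G15010, PDF1.1, PDF1.4 and THI2.2 with all 4 arrays (diamonds) and with each array left out in turn; filled symbols are called at an adjusted p under 0.05 and open ones are not. AT2G15010 and THI2.2 were called in every case, and PDF1.2, PDF1.2b and THI2.1 in none.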

How the data were processed

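The authors deposited 1 table of log2 values for 4 arrays, made with RMA (background correction, normalization between arrays, one value per probe set), as the submitters' processing notes name it. Which program ran RMA, and which probe set definition it used, is not stated in the sources used here. The deposited log2 values were used without further scaling. The number of arrays, 2 per genotype, limits the precision.

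Of 22810 probe sets, 64 array controls were left out and 22746 tested in R 4.3.3 by limma 3.58.1 (functions lmFit and eBayes, two-sided, rsa3-1 minus wild type, 5.35 prior degrees of freedom), with Benjamini-Hochberg adjustment over all and a threshold of 0.05. The procedure was run on simulated data with independent noise, drawn from limma's own variance model. Such a run checks the code and not the calls made here. The platform annotation named 1 gene for 13513 probe sets, several for 503 and none for 8730. RefSeq (TAIR10.1) gave names and gene order only, so no coordinates are given. It holds no gene descriptions, so family words were looked for in its symbols and synonyms, which gave 6 probe sets, all in the lists already. No sequences were used. Tables and figures used Python 3.11.15, pandas 2.3.3 and matplotlib 3.10.9.

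The members and lists were chosen with earlier results of these data known. Every measured gene of the defensin and thionin lists is named, with up to 4 members of each other list by smallest p and the 3 nearest genes of each member. Alternatives covered scaling, dim probe sets, variance model, array weights, annotation, a replicate block and leaving out each array.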

Additional observations from a re-analysis of the deposited data

How the results depend on the processing

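AT2G15010 kept its decrease and its call under all 12 alternatives, from -1.96 to -1.78, with an adjusted p of 0.027 with the replicate block as the highest. With each array left out in turn, the difference of PDF1.2 ran from -0.40 to 8.28e-05, that of THI2.1 from -0.10 to 0.29 and that of PDF1.2b from 0.18 to 0.46, and none of these 3 genes was called under any alternative run. Filters on dim probe sets at a mean of 5 and 6 removed PDF1.2b and THI2.1, and the filter at 6 also removed PDF1.2, so they gave no value there. The 256 calls over all probe sets became 129 over probe sets of 1 gene, where fewer were tested, and 42 with the replicate block, and they were 333 with arrays at a common median, 325 with quantile normalization and 352 with trended and robust variance. They were between 102 and 222 with each array left out, the lone array being assumed to vary like the other genotype. The count of called defensins was 2 with arrays at a common median, quantile normalization or trended and robust variance, 0 with the replicate block, and 0 to 2 with each array left out, against 1 with all arrays. That of called thionins was 1 with the replicate block, where THI2.2 had an adjusted p of 0.060 and PDF1.4 one of 0.13, and 2 in every other case run. Why the calls differ was not tested. Arrays of the same replicate number deviated from their group means with a correlation of 0.013 over the probe sets, and the labels do not say that a number marks a shared batch, so the block has no stated basis. The alternatives for THI2.2, PDF1.4, PDF1.1 and both counts were chosen after seeing the data.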
